A study of Macaca fascicularis and Macaca mulatta and Papio anubis with 20 samples.

Results

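The itch genes SST (ENSMFAG00000043924), NPPB (ENSMFAG00000032207), OSMR (ENSMFAG00000014306) and MRGPRX1 (ENSMFAG00000061091) were followed in spatial transcriptomes of dorsal root ganglia from non-human primates. They were chosen by symbol and are 4 of the 22000 features in the Macaca fascicularis tables. Visium arrays capture polyadenylated RNA on a grid of barcoded spots under a tissue section, and a unique molecular identifier (UMI) marks each captured molecule. The 20 sections were 16 labelled M. fascicularis, 2 labelled M. mulatta and 2 labelled P. anubis, all fresh frozen and stained with haematoxylin and eosin. The M. fascicularis sections came as 4 sections under each of 4 title codes, a female and a male in batch 1 and a female and a male in batch 2. Each title code was treated as 1 specimen, and the batches are those of the labels, which do not say what a batch was. The sections of the other species were labelled batch 2 with no sex, and the labels gave no genotype, treatment or age for any section. Neither the ganglion level nor the health of the animals is given, and a spot can hold several cells of different types.

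Dorsal root ganglia house the cell bodies of the sensory neurons that innervate skin, muscle and viscera, and itch is carried by subsets of small-diameter unmyelinated C-fibre neurons. In rodents, one such subset releases the natriuretic peptide encoded by NPPB and also makes somatostatin, the inhibitory peptide encoded by SST. OSMR is the receptor subunit that joins IL31RA to bind interleukin 31, a cytokine of itch in inflamed skin, and joins IL6ST to bind oncostatin M. MRGPRX1 is a primate receptor of the Mas-related family that responds to the pruritogens chloroquine and BAM8-22, and it is closely related to MRGPRX2, MRGPRX3 and MRGPRX4. How reads shared by these relatives were assigned is not given in the sources used here.

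Depth ran from 1136433 to 7073134 UMIs under tissue per M. fascicularis section. The male of batch 2 was shallow where neuronal RNA was high, with a median of 1060 UMIs per neuron-rich spot against 5578 to 7337 in the other 3 specimens, and 1 of its 4 sections had only a table of totals. Both sections labelled M. mulatta had medians of 61 and 62 UMIs per tissue spot, and section 1 labelled P. anubis had 113. Feature identifiers in the sections labelled M. mulatta began with ENSPANG, the Ensembl prefix for P. anubis, and those labelled P. anubis began with ENSMMUG, the prefix for M. mulatta, so the names of these groups follow the labels only. The pan-neuronal marker list took 10729 to 16084 counts per 1000000 (CPM) in the M. fascicularis sections and the satellite glia list 3594 to 6868 CPM, so the labelled tissue had both of its defining cell types.

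SST, the somatostatin precursor, gave 7404 UMIs over the 16 M. fascicularis sections. Sections 1 to 4 stood at 92.6, 165, 41.8 and 80.8 CPM in the batch 1 female and at 167, 171, 64.3 and 70.4 CPM in the batch 1 male. They stood at 217, 93.0, 72.4 and 123 CPM in the batch 2 female and at 203, 128, 161 and 150 CPM in the batch 2 male. The group means were 95.03 ± 51.4, 118 ± 58.9, 126 ± 64.0 and 160.5 ± 31.5 CPM (SD, n = 4 sections each), and the section values of every pair of groups overlapped.

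MRGPRX1 gave 991 UMIs. Its sections stood at 14.9, 25.3, 5.49 and 14.6 CPM in the batch 1 female, and at 30.9, 19.8, 13.4 and 8.34 CPM in the batch 1 male. They stood at 40.9, 11.9, 7.49 and 18.8 CPM in the batch 2 female and at 11.2, 7.88, 11.8 and 2.64 CPM in the batch 2 male. Means were 15.1 ± 8.09, 18.1 ± 9.73, 19.8 ± 14.8 and 8.39 ± 4.21 CPM (SD, n = 4 sections each), again with overlapping groups, and the batch 2 male held both the lowest section and the narrowest spread.

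NPPB and OSMR were captured sparsely, with 216 and 314 UMIs over the 16 sections. NPPB stood at 0.621, 0.468, 4.89 and 5.11 CPM in the batch 1 female and at 2.21, 1.03, 7.26 and 5.37 CPM in the batch 1 male. In batch 2 it stood at 4.88, 1.43, 2.897 and 3.32 CPM in the female and at 2.48, 2.63, 2.47 and 5.28 CPM in the male. OSMR stood at 4.97, 6.08, 2.97 and 4.60 CPM in the batch 1 female and at 7.45, 5.99, 4.84 and 4.24 CPM in the batch 1 male. Its batch 2 sections stood at 6.04, 4.99, 4.83 and 3.32 CPM in the female and at 4.04, 8.40, 6.42 and 4.40 CPM in the male. Group means were 2.77 ± 2.58, 3.97 ± 2.86, 3.13 ± 1.42 and 3.21 ± 1.38 CPM for NPPB, in the order above (SD, n = 4 sections each). For OSMR they were 4.65 ± 1.29, 5.63 ± 1.42, 4.80 ± 1.12 and 5.82 ± 2.02 CPM, and for both genes every pair of groups overlapped.

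**Figure D1:**
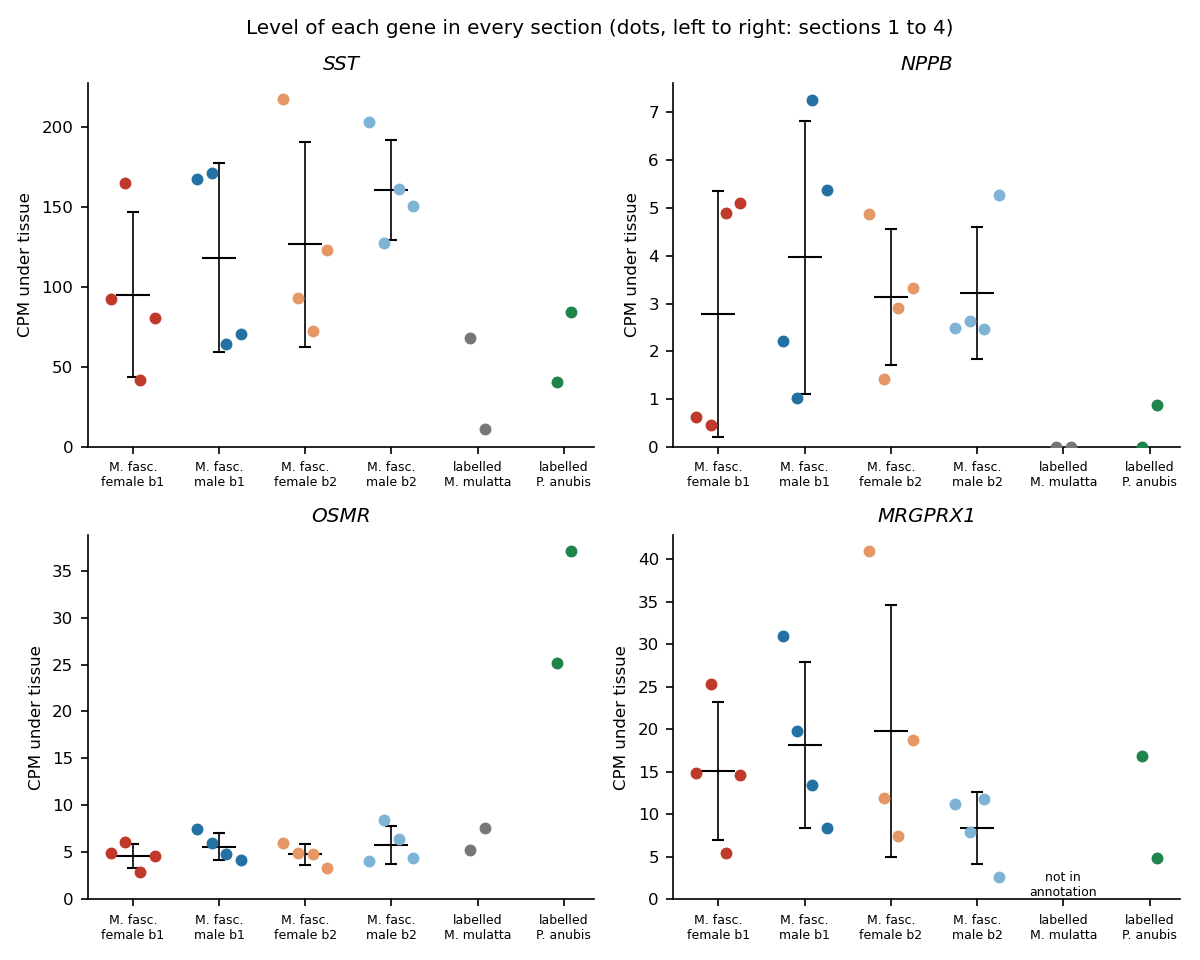
Level of each gene in counts per 1000000 UMIs under tissue (vertical axis) for the 6 labelled groups (horizontal axis), with 1 dot per section in section order and a black bar for the mean ± SD where a group has 4 sections. The 4 M. fascicularis groups overlap for every gene, and OSMR stands at 25.2 and 37.1 CPM in the sections labelled P. anubis against at most 8.40 CPM in M. fascicularis.

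Within both batch 1 specimens, sections 1 and 2 did not overlap sections 3 and 4 for any of the 4 genes. SST, OSMR and MRGPRX1 were higher in sections 1 and 2, and NPPB was lower. The neurofilament list, of NEFL, NEFH and the related intermediate filament genes PRPH and INA, went the other way to SST: it took 11736 and 13899 CPM in sections 1 and 2 against 23560 and 20212 CPM in sections 3 and 4 of the female. In the male it took 11659 and 15880 against 17890 and 21172 CPM. This split was noticed after the values were seen and was not tested. The share of all genes that separate the sections in this way was not counted, so the split is not read as particular to the 4 genes. In batch 2 it was seen only for OSMR in the female, and the part of the neurofilament difference in it was not tested.

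Neither batch nor sex moved any of the 4 genes past the threshold when counts were summed per specimen, with 2 specimens on each side. SST was 0.65 ± 0.21 (SE) higher in batch 2 on the log2 scale, which did not pass (quasi-likelihood F test in edgeR, adjusted p = 0.15 by the Benjamini-Hochberg method over 12650 genes). The batch differences were -0.20 ± 0.46 for NPPB, 0.21 ± 0.41 for OSMR and -0.02 ± 0.40 for MRGPRX1 (log2 ± SE), with edgeR adjusted p from 0.83 to 0.99. Of all genes tested, 2.88% passed in either direction, and SCN10A, a sodium channel of nociceptors, was the only listed itch gene among them. Male minus female was 0.32 ± 0.21 for SST, 0.03 ± 0.46 for NPPB, 0.21 ± 0.41 for OSMR and -0.44 ± 0.40 for MRGPRX1 (log2 ± SE), each with an edgeR adjusted p of 0.998. By sex 0% of genes passed in edgeR and none in DESeq2, with 169 at an unadjusted p under 0.05 in edgeR and 67 passing without the filter on low counts. For MRGPRX1 male minus female was 0.27 in batch 1 and -1.04 in batch 2 (log2). The difference of -1.31 had an exact two-sided permutation p of 0.143 over 4900 regroupings of sections within batches, 0.571 after adjustment over the 4 genes. Sections of 1 specimen are not independent animals, so that p describes the spread between sections.

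Per spot, the genes differed in how their molecules were packed. SST had at least 1 UMI in 13.2% of the 21897 tissue spots of the 15 sections with spot data, and 65.6% of its 2897 positive spots held a single UMI. At the other end, 128 spots with 10 or more UMIs held 34.5% of all its UMIs, and the richest spot held 86. MRGPRX1 had a UMI in 3.43% of tissue spots, a single one in 80.2% of its 752 positive spots, and at most 6. NPPB was found in 0.900% and OSMR in 1.30% of tissue spots; 93.4% of the 197 NPPB spots and 94.7% of the 285 OSMR spots held 1 UMI, and no spot held more than 3. Off the tissue, where 52967 spots served as background, the shares were 0.844% for SST, 0.0302% for NPPB, 0.0566% for OSMR and 0.104% for MRGPRX1. The off-tissue RNA nonetheless held SST at 108 CPM against 116 CPM under tissue, NPPB at 3.41 against 3.45, OSMR at 6.41 against 4.92 and MRGPRX1 at 11.8 against 15.8.

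The share of positive spots differed between sections, and not always in the order of their depth. For SST it ran from 5.48% (95% exact binomial interval 4.56 to 6.52%) in section 3 of the batch 2 female to 33.4% (29.6 to 37.3%) in section 2 of the batch 1 female, sections with medians of 398 and 5145 UMIs per tissue spot, but it was 9.02% in section 3 of the batch 1 female and 18.9% in section 1 of the batch 2 female, with medians of 2255 and 698.5. For MRGPRX1 it ran from 0.335% (0.0692 to 0.976%) in section 4 of the batch 2 male to 12.9% (10.3 to 15.9%) in section 2 of the batch 1 female, and these intervals cover counting error only. With each spot thinned to 500 UMIs, which kept 14724 of the tissue spots, SST shares were 3.27 ± 1.99% in the batch 1 female, 4.18 ± 2.04% in the batch 1 male and 4.32 ± 1.39% in the batch 2 female (SD, n = 4 sections). The batch 2 male had 7.37 ± 1.86% (SD, n = 3 sections). The thinned MRGPRX1 shares were 0.513 ± 0.323, 0.645 ± 0.312, 0.699 ± 0.376 and 0.290 ± 0.149% in the same order, and those of NPPB and OSMR all lay below 0.5%. A lower level in summed spots can come from fewer cells of a type or from less RNA per cell, which cannot be told apart here.

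SST and MRGPRX1 differed in opposite directions between spots rich in neuronal RNA and the rest. Neuron-rich spots were the 25% of each section's spots with the highest share of UMIs in the pan-neuronal list, 4648 spots against 13946, all with at least 200 UMIs. In the batch 1 female SST stood at 67.6 CPM inside and 106 CPM outside them, with 85.3 and 137 CPM in the batch 1 male, 95.7 and 161 CPM in the batch 2 female, and 138 and 182 CPM in the batch 2 male. It was lower in 4 of 4 specimens, at 96.6 ± 29.8 against 147 ± 32.7 CPM (SD, n = 4 specimens), a log2 difference of -0.62 ± 0.07 (SE) with an edgeR adjusted p of 2.82e-06. MRGPRX1 was higher in 4 of 4, at 15.2 against 12.2, 22.2 against 11.4, 20.3 against 18.3 and 9.66 against 8.39 CPM in the same order.

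The MRGPRX1 difference was 0.48 ± 0.14 (log2 ± SE, edgeR adjusted p = 0.014), and it did not pass in DESeq2 (adjusted p = 0.093), with the top 10% of spots as neuron-rich (0.38) or without the batch 1 male (0.30). NPPB at 0.26 ± 0.22 (edgeR adjusted p = 0.374) and OSMR at 0.15 ± 0.25 (edgeR adjusted p = 0.672) did not pass in the first place. Of the genes tested, 13.4% were called higher and 19% lower. With neurofilament genes added to the list that chose the spots, all 4 genes were lower in neuron-rich spots, at -1.32 for SST, -1.03 for NPPB, -0.78 for OSMR and -1.15 for MRGPRX1 (log2).

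CPM divides by all RNA of a spot. Neuron-rich spots were deeper in both batch 1 specimens and the batch 2 female, with medians of 5578 to 7337 against 615 to 1467.5 UMIs. In the batch 2 male the medians were close, at 1060 against 1038 UMIs. From the lowest to the highest quartile of spots by the pan-neuronal list, SST ran at 84.0, 159, 149 and 96.6 CPM, but at 7.43, 30.1, 59.6 and 51.9 UMIs per 100 spots (means of 4 specimens). MRGPRX1 was higher in each successive quartile on both scales, from 4.74, 10.1 and 14.9 to 16.8 CPM and from 0.405, 2.00 and 6.22 to 10.97 UMIs per 100 spots. NPPB ran from 1.51, 2.87 and 3.55 to 3.63 CPM and at 0.128, 0.601, 1.45 and 2.28 UMIs per 100 spots across the same quartiles. OSMR lacked such an order in CPM, with 3.71, 5.82, 4.63 and 4.62 CPM, but had 0.308, 1.07, 1.84 and 3.10 UMIs per 100 spots, higher in each successive quartile.

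**Figure D2:**
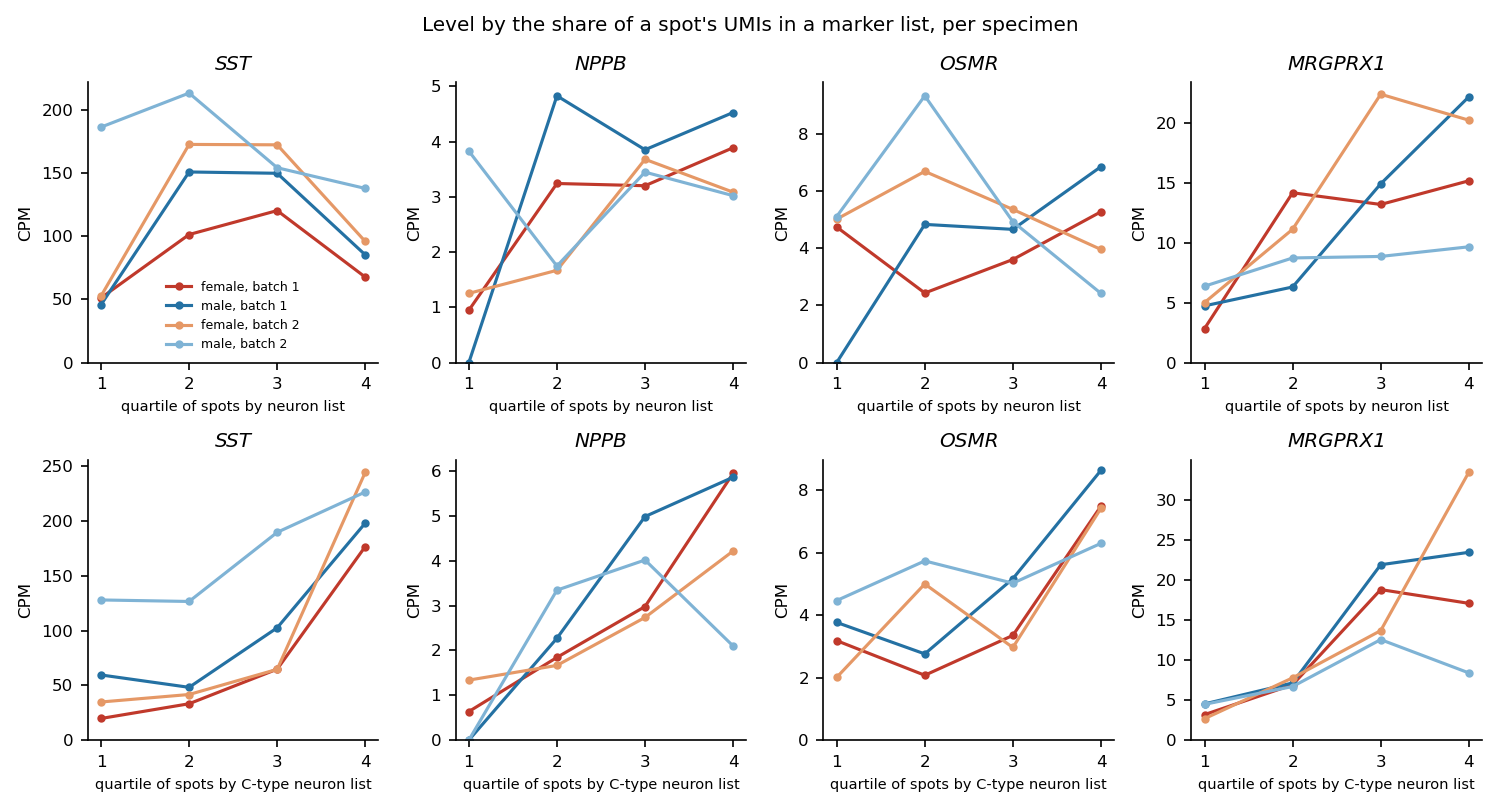
Level in CPM (vertical axis) in each quartile of spots (horizontal axis, 1 lowest) by the share of a spot's UMIs in the pan-neuronal list (top row) or the C-type list (bottom row), 1 line per M. fascicularis specimen. SST peaks in the middle quartiles by the pan-neuronal list but averages 212 CPM in the highest C-type quartile against 60.5 CPM in the lowest.

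All 4 genes were higher where the RNA of C-type neurons outweighed that of A-type neurons. Among neuron-rich spots, 1845 held more UMIs of the C-type list (SCN10A, SCN11A, TRPV1 and TAC1 among them) and 2185 more of the A-type list of large myelinated neurons (PVALB, NTRK3, KCNS1, CNTNAP2 and SPP1); none of the 4 itch genes was in either list. SST stood at 112 CPM in C-type and 28.9 CPM in A-type spots of the batch 1 female, 125.1 and 48.1 CPM in the batch 1 male, 182 and 44.2 CPM in the batch 2 female, and 144 and 113 CPM in the batch 2 male. The difference was 1.58 ± 0.14 (log2 ± SE, edgeR adjusted p = 1.77e-08), and the batch 2 male showed the narrowest gap.

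MRGPRX1 stood at 25.4 and 6.32, 33.5 and 10.1, 34.7 and 10.6, and 13.6 and 4.17 CPM in C-type and A-type spots of the same specimens, a difference of 1.73 ± 0.15 (log2 ± SE, edgeR adjusted p = 1.17e-08) with no overlap between the classes. NPPB stood at 5.62 and 1.70, 6.88 and 2.24, 5.22 and 1.82, and 4.18 and 2.08 CPM, and the classes did not overlap either. Its difference was 1.52 ± 0.30 (edgeR adjusted p = 4.4e-04), on 75 UMIs in C-type and 29 in A-type spots. NPPB passed the filter on low counts only through the C-type spots, where it was high, so its call is no support by itself. OSMR stood at 6.69 and 3.89, 10.3 and 3.803, 5.74 and 2.97, and 2.09 and 2.08 CPM, so the batch 2 male showed next to none of a difference of 1.01 ± 0.25 (edgeR adjusted p = 0.0046). That call was lost in DESeq2 (adjusted p = 0.11) and without the batch 1 male (0.13). Leaving NPPB aside, SST and MRGPRX1 were called higher, and OSMR with the limits just given. Of all genes tested, 14% were called higher and 15.1% lower.

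Across quartiles of the C-type list over all spots, the mean level of every gene was higher in each successive quartile: 60.5, 62.4, 105 and 212 CPM for SST, 3.71, 7.13, 16.7 and 20.6 CPM for MRGPRX1, 0.494, 2.28, 3.68 and 4.53 CPM for NPPB, and 3.36, 3.89, 4.13 and 7.46 CPM for OSMR. In the batch 2 male NPPB and MRGPRX1 were lower in the highest quartile than in the one beneath it.

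**Figure D3:**
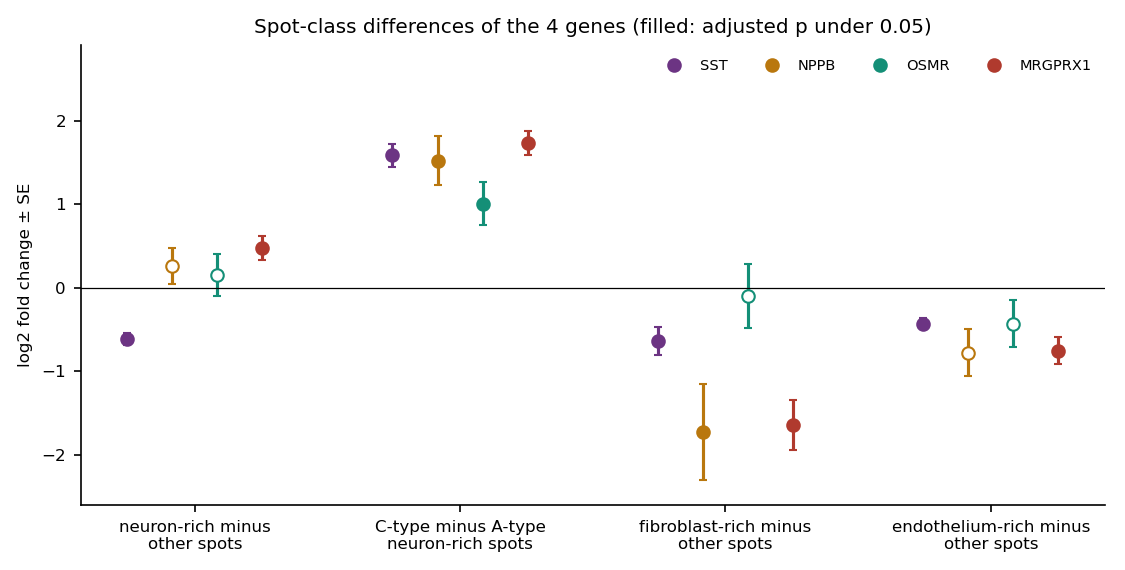
Log2 fold change ± SE (vertical axis) of the 4 genes in 4 spot-class comparisons (horizontal axis), over 4 M. fascicularis specimens, with filled points where the edgeR adjusted p is under 0.05. All 4 points lie above 0 and are filled in the C-type minus A-type comparison, and SST lies below 0 in the other 3. NPPB entered the C-type minus A-type test only through its level in C-type spots.

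The wider itch machinery was read in the same C-type comparison, where SCN11A, TRPV1 and TAC1 helped to choose the spots and are therefore no result. Of the signalling channels and effectors, the 3 of 3 tested members that did not choose the spots were called higher, beside 14% of all genes. These were TRPA1, an irritant-gated channel that couples to Mas-related receptors, at 1.63 ± 0.30, SCN9A, a nociceptor sodium channel, at 0.59 ± 0.14, and PLCB3, the phospholipase of several itch receptors, at 1.07 ± 0.10 (log2 ± SE). Of the peptides, the 2 of 2 tested that did not choose the spots were called higher, CALCA, the CGRP precursor, at 1.46 ± 0.12 and PENK, the enkephalin precursor, at 1.01 ± 0.31.

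In the Mas-related family, MRGPRX4, a bile acid receptor linked to cholestatic itch, was 1.495 ± 0.39 higher and MRGPRE was 0.74 ± 0.09 higher (log2 ± SE), 2 of 3 tested. Of the oncostatin and interleukin 31 receptor chain, the transcription factor STAT3 was called higher, at 0.57 ± 0.13. Among other itch receptors 1 of 4 tested was higher, IL13RA1 at 0.27 ± 0.10, and 1 was lower, the serotonin receptor HTR7 at -2.41 ± 0.26 (edgeR adjusted p = 2.76e-07). The direct partners of the 4 genes were scarce. IL31RA gave 14 UMIs in 5 of the 16 sections, OSM 97, LIFR 71 and IL31 0. Of the somatostatin receptors SSTR4 gave 50 UMIs, SSTR2 2, and SSTR1 and SSTR5 0. The natriuretic peptide receptors NPR1, NPR2 and NPR3 gave 168, 2002 and 7 UMIs. IL6ST and SSTR3 had no matching symbol and were not analysed here. MRGPRX2, MRGPRX3 and MRGPRX4 gave 3, 47 and 147 UMIs, and MRGPRD, the receptor of a separate rodent itch neuron, gave 75.

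SST and MRGPRX1 were called lower in connective tissue. NPPB had too few UMIs there to be read, and OSMR did not pass. Fibroblast-rich spots were the 25% of each section highest for collagen and matrix genes, and they were shallow, with medians of 402 to 967 against 1318 to 3270 UMIs. MRGPRX1 stood at 4.22, 7.03, 2.30 and 4.78 CPM in them against 14.5, 17.3, 20.3 and 9.35 CPM elsewhere, a difference of -1.64 ± 0.30 (log2 ± SE, edgeR adjusted p = 0.0012). SST stood at -0.64 ± 0.17 (edgeR adjusted p = 0.0102), and lost its call without the batch 1 female (0.067). NPPB at -1.73 ± 0.57 (edgeR adjusted p = 0.03) rested on 5 UMIs in fibroblast-rich spots, and it passed the filter on low counts only through the other spots. Its call was lost in DESeq2 (0.10), with spots of at least 1000 UMIs (0.52) and without the batch 1 female (0.16) or male (0.22). OSMR, which fibroblasts of many tissues are known to express, stood at 2.11, 3.84, 5.74 and 8.37 CPM against 4.51, 5.54, 4.65 and 5.05 CPM, higher in the 2 batch 2 specimens and lower in the 2 of batch 1, with -0.10 ± 0.38 (edgeR adjusted p = 0.862). Of all genes tested, 20% were called higher and 16.4% lower.

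Some genes of the itch lists were called higher in fibroblast-rich spots, where 20% of all genes were. Among them were MRGPRF, a Mas-related orphan receptor, at 2.13 ± 0.24, and EDNRA, the endothelin receptor of vascular smooth muscle, at 1.84 ± 0.35 (log2 ± SE). IL7R stood at 1.25 ± 0.34 and JAK2 at 0.69 ± 0.19. They are named for their call, and the other members of their lists are not given here, so no pattern of these lists is read. Smooth muscle, immune, endothelial and myelin lists were higher in those spots too, with 6 of 6, 7 of 7, 6 of 7 and 6 of 7 tested members called, so fibroblast-rich spots were not fibroblasts alone.

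In endothelium-rich spots SST was at -0.43 ± 0.07 (log2 ± SE, edgeR adjusted p = 9.7e-04) and MRGPRX1 at -0.75 ± 0.16 (0.00854), lower in 4 of 4 specimens each, while 3.8% of genes were called higher and 1.63% lower. The MRGPRX1 call was lost in DESeq2 (0.077) and without the batch 1 female (0.096) or the batch 2 female (0.12). NPPB at -0.77 ± 0.29 (edgeR adjusted p = 0.138) and OSMR at -0.43 ± 0.28 (0.446) did not pass. NPR1, the receptor for natriuretic peptides on vessels, was 1.18 ± 0.25 higher there (edgeR adjusted p = 0.00974).

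Spots that held a UMI of 1 of the genes were next compared with spots that held none, leaving the choosing gene out. These spots were deeper: median UMIs per specimen were 2529 to 8371.5 in the 2861 SST-positive against 736 to 1614 in SST-free spots, 4059.5 to 10064 against 926 to 1981.5 for the 196 NPPB-positive, 2546 to 10705.5 against 913 to 1969 for the 282 OSMR-positive, and 4207 to 10882 against 845 to 1833 for the 749 MRGPRX1-positive spots. They also held less glial and connective RNA, with 9 of 9 tested fibroblast genes and 6 or 7 of 7 myelin genes called lower in each of the 4 comparisons. The part of depth and of these cell types in the following differences was not tested, but each comparison was repeated within neuron-rich spots alone. That repeat used a subset of the same spots and specimens, so it is not an independent test. The share of all genes called higher in it is not given here.

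MRGPRX1 was called higher around each of the other 3 genes. It stood at 24.8 and 8.85 CPM in SST-positive and SST-free spots of the batch 1 female, 23.8 and 12.9 CPM in the batch 1 male, 34.8 and 12.4 CPM in the batch 2 female, and 8.29 and 8.95 CPM in the batch 2 male. That gave 1.18 ± 0.15 (log2 ± SE, edgeR adjusted p = 1.5e-04), higher in 3 of 4 specimens, and 1.18 again within neuron-rich spots (1.23e-06). In OSMR-positive against OSMR-free spots it stood at 33.7 and 12.7, 41.1 and 15.2, 57.0 and 17.8, and 0 and 8.88 CPM, or 1.48 ± 0.19 (edgeR adjusted p = 8.06e-12), and 1.37 within neuron-rich spots (3.92e-08). In NPPB-positive spots it was 0.92 ± 0.24 higher (edgeR adjusted p = 0.0054), also in 3 of 4, but that call was lost in DESeq2 (0.54) and without the batch 2 female (0.52).

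OSMR was higher in MRGPRX1-positive spots, at 10.9 against 3.34, 13.6 against 4.26, 9.32 against 3.97, and 0 against 5.70 CPM, or 1.43 ± 0.25 (log2 ± SE, edgeR adjusted p = 1.9e-05). In SST-positive spots it was 0.77 ± 0.19 higher (edgeR adjusted p = 0.0134, 1.04 and 0.00425 within neuron-rich spots), which was lost in DESeq2 (0.14) and without the batch 1 female (0.14) or batch 2 female (0.075). SST was higher in 4 of 4 specimens both in OSMR-positive spots, by 0.78 ± 0.10 (edgeR adjusted p = 9.43e-13), and in MRGPRX1-positive spots, by 0.78 ± 0.08 (1.12e-10). In OSMR-positive against OSMR-free spots SST stood at 144 and 84.8, 147 and 111, 220.5 and 121, and 472 and 165 CPM. In NPPB-positive spots SST was at 0.25 ± 0.11 (edgeR adjusted p = 0.219), with 0.58 (0.0047) within neuron-rich spots. NPPB itself passed around none of the other 3 genes: it stood at 0.20 ± 0.25 in SST-positive (edgeR adjusted p = 0.645), 1.05 ± 0.44 in OSMR-positive (0.139) and 0.73 ± 0.32 in MRGPRX1-positive spots (0.0935).

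The batch 2 male held no UMI of OSMR or MRGPRX1 in its NPPB-positive spots, of NPPB or MRGPRX1 in its OSMR-positive spots, or of NPPB or OSMR in its MRGPRX1-positive spots. That specimen had 19, 33 and 49 tissue spots positive for NPPB, OSMR and MRGPRX1.

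The genes that most resembled SST in its spots were led by NECAB2, a neuronal calcium-binding protein, at 7.73 ± 2.43 CPM in SST-positive against 1.496 ± 0.443 CPM in SST-free spots (SD, n = 4 specimens), or 2.55 ± 0.22 (log2 ± SE, edgeR adjusted p = 3.2e-06). EDN3, an endothelin peptide, followed at 49.6 ± 20.7 against 13.8 ± 9.55 CPM, and CCK, the cholecystokinin precursor, at 46.3 ± 2.94 against 12.4 ± 3.11 CPM. GPAT2, an acyltransferase of lipid synthesis, C1QL2, a secreted synaptic protein, GIP, an incretin peptide best known from the gut, CPNE7, a copine, and KIFC2, a kinesin, were higher by 1.04 to 1.28 on the log2 scale. Neuron-rich spots are part of the spots that chose these genes, so calls there are no separate support. Within them KIFC2 stood at 0.93 and did not pass (edgeR adjusted p = 0.0774), and NECAB2 was not tested. The largest falls were RHOBTB3 at -2.34 ± 0.37, ACTG2, a smooth muscle actin, at -2.33 ± 0.22, and PLA2G2A, a secreted phospholipase, at -2.09 ± 0.09. Within neuron-rich spots PLA2G2A stood at -0.46 and did not pass (edgeR adjusted p = 0.0975), and the other 2 were not tested there. NECAB2 and KIFC2 passed the filter on low counts only through the SST-positive spots, and RHOBTB3 only through the SST-free spots. Their calls are no support by themselves. In this comparison 6.84% of genes were called higher and 8.49% lower.

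MRGPRX1-positive spots were led by PAQR5, a membrane progestin receptor, at 11.4 ± 4.80 against 3.15 ± 1.88 CPM (SD, n = 4 specimens), or 2.02 ± 0.27 (log2 ± SE, edgeR adjusted p = 9.7e-08). PRDM8, a transcriptional regulator, stood at 5.62 ± 4.40 against 1.58 ± 1.09 CPM, and KCNK18, the TRESK potassium channel of sensory neurons, at 24.8 ± 14.4 against 7.84 ± 2.95 CPM. SYNPR, the synaptic vesicle protein synaptoporin, had the deepest counts of the 8, at 244 ± 114 against 90.6 ± 40.3 CPM and 1.42 ± 0.07 (edgeR adjusted p = 1.5e-19). PDE4C, TMEM45B, GPAT2 and GIP were higher by 1.51 to 1.77 on the log2 scale. Within neuron-rich spots PRDM8, PDE4C and TMEM45B were not tested. Calls of the others there are no separate support, since those spots are part of the spots that chose them. PLEKHG1, with 1 UMI in MRGPRX1-positive spots, MEDAG, with 7, and ADH1B, with 9, were the lowest. PAQR5, PDE4C and TMEM45B passed the filter on low counts only through the MRGPRX1-positive spots, and PRDM8 needed its level there to pass. PLEKHG1, MEDAG and ADH1B passed only through the MRGPRX1-free spots. Calls of these genes are no support by themselves. Of all genes, 9.37% were called higher and 13.1% lower.

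OSMR-positive spots were led by PRDM8 at 6.64 ± 5.23 against 1.89 ± 1.40 CPM (SD, n = 4 specimens, 1.53 ± 0.52 on the log2 scale, edgeR adjusted p = 0.044 on 15 UMIs), with LPO, lactoperoxidase, at 48.6 ± 24.6 against 24.3 ± 8.56 CPM and CPNE5, a copine, at 197 ± 43.4 against 96.2 ± 20.5 CPM. GPAT2, SCN11A, CPNE8 and PTGDR, a prostaglandin receptor, were higher by 0.99 to 1.06. NPPB-positive spots were led by PAQR5 at 9.52 ± 4.63 against 3.78 ± 1.66 CPM (edgeR adjusted p = 0.044 on 17 UMIs) and CHP2, a calcineurin-like calcium sensor, at 26.4 ± 3.95 against 9.33 ± 3.09 CPM. FAM131B, KCNK18, PTGDR, SCN11A and FNDC5 were higher by 0.82 to 1.24. Within neuron-rich spots PRDM8 around OSMR and PAQR5 around NPPB were not tested. Calls of the others there are no separate support, since those spots are part of the spots that chose them. The genes that fell most had 0 to 3 UMIs in the positive spots (OLFM2 0, CFB 2 and TEAD4 1 for NPPB, DAPL1 2, EYA2 2 and OMA1 3 for OSMR), so no fold is given. These falling genes passed the filter on low counts only through the spots free of the choosing gene. PAQR5 passed it only through the NPPB-positive spots, and PRDM8 needed its level in OSMR-positive spots to pass. Calls of these genes are no support by themselves. Called higher and lower were 3.55% and 4.8% of genes in OSMR-positive and 2.16% and 3.72% in NPPB-positive spots.

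The lists of partners had genes in common. GPAT2 was among the leading 8 for SST, OSMR and MRGPRX1, and PAQR5 and KCNK18 for NPPB and MRGPRX1. PRDM8 led for OSMR and MRGPRX1, PTGDR and SCN11A for NPPB and OSMR, and GIP for SST and MRGPRX1. Of the genes called higher, 334 were called for both OSMR and MRGPRX1, which is 93.0% of the OSMR calls and 34.0% of the MRGPRX1 calls. For SST and MRGPRX1 the shared calls numbered 580 (76.9% and 59.1%), and for SST and NPPB 178 (23.6% and 82.0%). These comparisons draw on the same sections and in part on the same spots, so the shares are a description.

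Of the signalling list, SCN11A and PLCB3 were called higher around each of the 4 genes, PLCB3 by 0.54, 0.45, 0.88 and 1.09 (log2) for SST, NPPB, OSMR and MRGPRX1. TRPA1 was called higher around SST (0.61 ± 0.19), OSMR (1.30 ± 0.36) and MRGPRX1 (1.51 ± 0.27), and stood at 1.25 ± 0.43 around NPPB (edgeR adjusted p = 0.0627). TRPV1, the capsaicin receptor, was called higher around SST, NPPB and OSMR by 0.40 to 0.59 and stood at 0.22 ± 0.12 around MRGPRX1 (edgeR adjusted p = 0.185). In all, 4 of 6 tested members were called higher around SST, 3 of 6 around NPPB, 4 of 5 around OSMR and 5 of 6 around MRGPRX1, with medians of 0.48, 0.45, 0.88 and 0.99 (log2) beside medians over all genes of -0.01 to -0.04 and shares of all genes called higher of 6.84%, 2.16%, 3.55% and 9.37%. No member of this list was called lower.

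Among the peptides, CALCA was called higher around all 4 genes, by 0.24 to 0.45. TAC1, the substance P precursor, was called higher around SST (0.34 ± 0.07) and NPPB (0.33 ± 0.08) and stood at -0.11 ± 0.08 and 0.03 ± 0.08 around OSMR and MRGPRX1 (log2 ± SE, edgeR adjusted p = 0.523 and 0.824). PENK was 1.38 ± 0.33 higher around NPPB (edgeR adjusted p = 0.0011) and stood between -0.54 and -0.17 around the other 3, with none of these passing. JAK1, the kinase bound to OSMR and IL31RA, was called higher around SST, OSMR and MRGPRX1 by 0.21 to 0.27, 1 of 5 tested members of the receptor chain each time, and no member passed around NPPB. MRGPRE was called higher around SST and MRGPRX1 by 0.39 each. HTR7 was lower around MRGPRX1, at -1.69 ± 0.35 (log2 ± SE, edgeR adjusted p = 1.98e-04), and in SST-positive spots EDNRA at -0.91 ± 0.27 and MRGPRF at -0.44 ± 0.12 were called lower.

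Overlap within single spots was then set against what depth alone would give. Of 18594 spots with at least 200 UMIs, 15106 held none of the 4 genes, 2959 held 1, 464 held 2 (2.50%), 59 held 3 and 6 held all 4. The expected number of spots with both genes of a pair was summed from each spot's UMI total and each gene's level in the section. OSMR and MRGPRX1 met in 72 spots against 33.3 expected, which is 25.5% of OSMR spots and 9.61% of MRGPRX1 spots. By specimen that was 20 against 9.14, 29 against 11.3, 23 against 11.9 and 0 against 0.906, so 3 specimens lay above expectation and the last had too few expected spots to be read.

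SST and MRGPRX1 met in 360 spots against 289 expected, 48.1% of MRGPRX1 spots and 12.6% of SST spots. NPPB met MRGPRX1 in 37 spots against 19.3 expected and OSMR in 17 against 7.16. SST met OSMR in 121 spots against 101 expected and NPPB in 70 against 59.8. The mean log2 ratios over specimens were 0.60 ± 0.85 for OSMR and MRGPRX1, 0.23 ± 0.28 for SST and MRGPRX1, 0.31 ± 0.52 for NPPB and MRGPRX1, 0.27 ± 0.42 for NPPB and OSMR, 0.24 ± 0.36 for SST and OSMR, and -0.08 ± 0.27 for SST and NPPB (SD, n = 4 specimens). The batch 2 male lay below 0 for all 6 pairs, but its 3 pairs without SST had 0 spots against 0.349, 0.521 and 0.906 expected, too few to read a direction. The other 3 specimens lay above 0 for the 5 pairs other than SST with NPPB. Without that specimen the mean for OSMR and MRGPRX1 was 1.01. No pair passed: exact two-sided sign-flip permutation p over 4 specimens ran from 0.25 to 0.75, adjusted over 6 pairs from 0.45 to 0.75. A set of 4 specimens cannot reach 0.05 in such a test. With the expected number taken within quartiles of the pan-neuronal list, the mean was 0.50 for OSMR and MRGPRX1, 0.17 for SST and MRGPRX1 and 0.22 for NPPB and MRGPRX1. Within quartiles of the C-type list, an alternative chosen after seeing the data, the same means were 0.46, 0.09 and 0.16, and no pair passed in either setting.

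**Figure D4:**
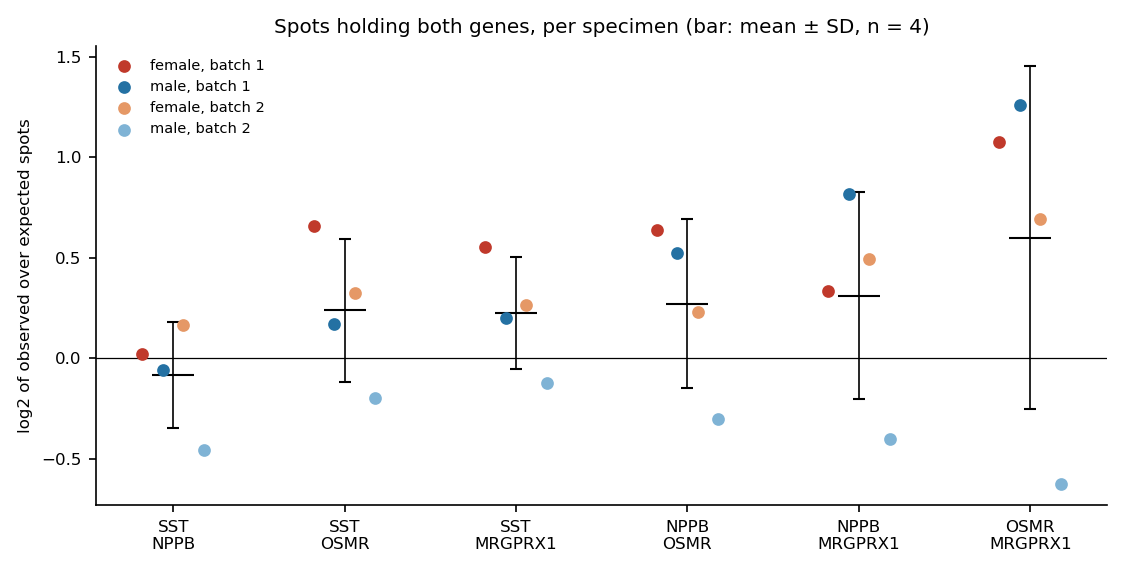
Log2 of observed over expected spots holding a UMI of both genes (vertical axis) for the 6 pairs (horizontal axis), 1 dot per M. fascicularis specimen as the mean of its sections, and a bar for the mean ± SD of 4 specimens. OSMR with MRGPRX1 has the highest mean, 0.60, and the batch 2 male lies below 0 in every pair, with under 1 spot expected in its 3 pairs without SST.

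Adjacent pairs of SST-positive spots numbered 2592 against 2235 expected from depth, with a mean log2 ratio of 0.28 ± 0.19 above 0 in 4 of 4 specimens, where the exact permutation p is the smallest that 4 specimens allow and does not reach 0.05. For MRGPRX1 there were 329 pairs against 218 expected (0.49 ± 0.46, 3 of 4 above 0, exact permutation p = 0.25). NPPB had 20 against 14.4 (-0.06 ± 0.38) and OSMR 28 against 24.4 (-0.30 ± 0.61, 1 of 4 above 0, exact permutation p = 0.375). After adjustment over the 4 genes these p-values ran from 0.5 to 0.75.

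**Figure D5:**
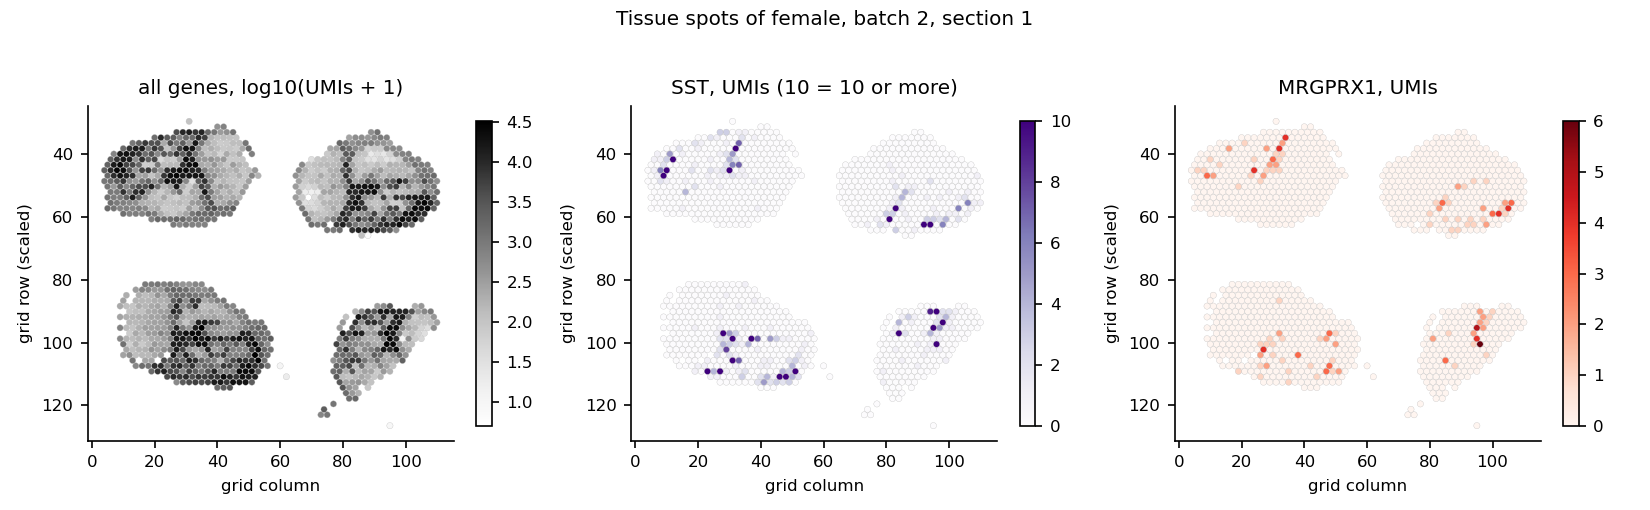
Tissue spots of section 1 of the batch 2 female by grid column and row, shaded by log10(UMIs + 1) of all genes, by SST UMIs (capped at 10) and by MRGPRX1 UMIs. Of 1242 spots, 235 hold SST and 102 hold MRGPRX1, and 72 hold both. Among spots with at least 200 UMIs, 71 hold both against 58.9 expected from depth. The section has the highest SST and MRGPRX1 levels of the 16 M. fascicularis sections.

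Moran's I scores whether nearby spots hold like amounts of a gene, and each section's value was taken from the authors' deposited table. SST was called spatially structured (adjusted p under 0.05 in the authors' deposited tables) in 13 of 16 sections, with a median I of 0.0504 and a range from 0.00176 to 0.171. The 3 sections without a call were section 1 of the batch 1 female and sections 2 and 4 of the batch 2 male. MRGPRX1 was called in 4 of 16 in the authors' deposited tables, at 0.132 in section 2 of the batch 1 female, 0.0421 in section 1 of the batch 1 male, 0.0446 in section 4 of the batch 2 female and 0.0217 in section 1 of the batch 2 male, with a median over all sections of 0.0109.

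NPPB was called in 2 of 16, sections 3 and 4 of the batch 1 male (0.0249 and 0.0288 in the authors' deposited tables), and OSMR in none, with medians of -0.000966 and -0.000899. Over all genes and the same sections 16.2% of gene and section pairs were called, so the 13 of 16 for SST stood above that share, the 4 and 2 of 16 for MRGPRX1 and NPPB lay near it, and OSMR had no call. Only 1 SST section and 1 MRGPRX1 section, both section 2 of the batch 1 female, reached an I of 0.1. In that section 2232 of 13909 genes reached 0.1 and 40.6% were called in the authors' deposited table, against 17 to 503 genes at 0.1 in each of the other 15 sections. It is also 1 of the 4 sections with an MRGPRX1 call.

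The other species had 1 title code each, so levels are given without a test. In the sections labelled P. anubis, with 595020 and 12595205 UMIs, SST gave 24 and 1059 UMIs (40.3 and 84.1 CPM), NPPB 0 and 11, OSMR 15 and 467 (25.2 and 37.1 CPM), and MRGPRX1 10 and 61 (16.8 and 4.84 CPM). Per 1000000 UMIs of the 13089 genes named in all 3 annotations, OSMR was 8.58 times the M. fascicularis level, 7.25 times over all features and 6.90 times per UMI of the pan-neuronal list. SST was at 0.787, MRGPRX1 at 0.431 and NPPB at 0.296 times the M. fascicularis level on the shared-gene scale. No direction is read for MRGPRX1, since section 2 holds 61 of its 71 UMIs and section 1 alone lay within the range of the M. fascicularis specimens. The 0 NPPB UMIs in section 1 allow up to 9.17 per 1000000 shared-gene UMIs by a floor of 3 counts.

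OSMR in the sections labelled P. anubis showed no steady order across quartiles of the marker lists below, though it was highest in the top C-type quartile. From lowest to highest quartile it ran at 42.1, 39.5, 40.8 and 33.6 CPM by the pan-neuronal list, at 34.4, 25.02, 39.7 and 43.9 CPM by the C-type list and at 36.4, 33.4, 50.3 and 32.0 CPM by the fibroblast list. SST in the same spots ran at 27.7, 19.96, 57.0 and 175 CPM by the C-type list. In the authors' deposited table for section 2, SST had a Moran's I of 0.0860 with a call and OSMR had -0.00638 without one (adjusted p = 0.83). Over both sections OSMR and MRGPRX1 met in 29 spots against 16.2 expected from depth. SST met MRGPRX1 in 30 spots against 19.6 expected and OSMR in 113 against 116. NPPB, with 10 positive spots, is left out, and none of these overlaps was tested. IL31RA was at 0 UMIs in both sections, which allows up to 9.17 and 0.441 per 1000000 shared-gene UMIs. The species, the specimen and the annotation used for counting cannot be told apart here.

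With 190376 and 264661 UMIs in all, the M. mulatta-labelled sections gave 13 and 3 SST UMIs, 1 and 2 OSMR UMIs and 0 NPPB UMIs each, which allows up to 30.9 and 22.2 per 1000000 shared-gene UMIs by a floor of 3 counts. SST was 0.357 times the M. fascicularis level on the shared-gene scale but 1.42 times per UMI of the pan-neuronal list, whose own level was 10106 and 4088 CPM. MRGPRX1 had no feature under that symbol in these tables and was not analysed here.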

How the data were processed

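Per the file headers and the submitters' processing notes, the authors ran Space Ranger (2.0.0 in 12 sections with a matrix, 2.1.0 in 7) and list the build Mmul_10; the aligner's settings are not given in the sources used here. The deposited matrices hold raw UMI counts per gene and spot, and the deposited section tables hold summed counts (which matched the matrix sums for every gene, with 0 differences), Moran's I, a score per gene, and its p-value and adjusted p-value, as the authors gave them. The deposited column of median-normalised mean signal per spot, from the authors' Space Ranger output, was not used. Levels are CPM over tissue spots; spot classes used spots with at least 200 UMIs, and the quartile, class and marker-list rules are given with the results. UMI counts were summed per specimen, or per specimen and spot class with the specimen as a block, and tested with edgeR 4.0.16 (quasi-likelihood, TMM, filterByExpr, Benjamini-Hochberg over all genes tested; R 4.3.3), calls being adjusted p under 0.05. DESeq2 1.42.0 (R) was an alternative, as were no filter on low counts, stricter spots, other lists, sections as samples and leaving out each section or specimen.

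Sections of 1 specimen share an animal or ganglion as far as the labels say, so p-values between batches or sexes rest on 2 specimens a side. Overlap was the log2 ratio of observed to expected spots, with 0.5 added to both because some sections had 0, averaged over sections and tested by sign flips over 4 specimens. The named partners of a gene were the 8 largest rises and 3 largest falls among symbols with adjusted p under 0.05, the same direction in 4 of 4 specimens and at least 100 UMIs. The 4 genes and all lists were chosen with earlier results of these data known. Of the itch lists, 7 of 8 somatostatin and natriuretic peptide receptors, 11 of 13 OSMR chain, 6 of 7 Mas-related, 14 of 17 other receptor, 9 of 10 signalling and 7 of 9 peptide symbols matched. The fitting script was tested on simulated data. The filter on low counts keeps a gene that is high enough in a single spot class, so some genes were tested only through the class where they were higher. Some listed genes are not reported here. No sequences are shown, and Python 3.11.15 did the other steps.

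Section numbers did not pair the samples: of 24 pairs of same-numbered sections in different specimens, 10 had deviations correlated above 0.1 (median 0.05), and 2 of 16 sections correlated best with their own number.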

Additional observations from a re-analysis of the deposited data

Results flagged for a closer look

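The NPPB level of 5.28 CPM in section 4 of the batch 2 male stood far above the other 3 sections of that specimen, which lay between 2.47 and 2.63 CPM. It rests on few molecules, and the section had the lowest total of the 16, with 1136433 UMIs. Across the 4 genes and 4 specimens 16 groups of 4 sections were checked for such a gap. With that many groups checked, a single gap is not read as a result, and its cause was not tested.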

How the results depend on the processing

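Of 231 results under other settings 190 counted as unchanged, and of 344 with a section or specimen left out 288 did. A fold change or overlap ratio counted as unchanged if it kept its direction and call, whatever its size. Numbers of calls and levels by labelled species were judged by size. No overlap test could pass in any setting, so its call could not change. Batch calls numbered 364, against 1279 genes with no filter, 4216 with sections as samples and 4097 with the section number as a replicate block, where SST passed at 0.64 (edgeR adjusted p = 0.0304) and NPPB turned to 0.16; sections are not specimens, and the section numbers pair nothing. Sex calls numbered 67 with no filter. DESeq2 called 2175 genes for neuron-rich, 1649 for C-type, 170 for endothelium-rich, 776 for SST-positive, 199 for NPPB-positive, 291 for OSMR-positive and 1196 for MRGPRX1-positive spots, against 3726, 2956, 586, 1690, 591, 844 and 2352 in edgeR. In DESeq2 the log2 differences without a call were 0.47 (neuron-rich MRGPRX1), 0.97 (C-type OSMR), -1.66 (fibroblast-rich NPPB), -0.76 (endothelium-rich MRGPRX1), 0.74 (SST-positive OSMR) and 0.79 (NPPB-positive MRGPRX1). With the top 10% of spots MRGPRX1 was at 0.17 in neuron-rich spots. With neurofilament genes in the list it turned to -1.15, NPPB to -1.03 and OSMR to -0.78. With at least 1000 UMIs, fibroblast-rich NPPB was at -0.30 and OSMR turned to 0.0510. Endothelium-rich calls were 1016 with no filter, 1636 with at least 1000 UMIs and 2479 with the top 10% of spots. Within neuron-rich spots, chosen after seeing the data, 942, 272 and 534 genes were called for SST, NPPB and OSMR, and SST was at 0.58 around NPPB. SST with NPPB turned to 0.0820 with spots summed over sections. With an I of at least 0.1 the sections called were 1 for SST, 0 for NPPB and 1 for MRGPRX1. Against M. fascicularis, SST labelled M. mulatta turned to 0.51 (log2) per neuronal UMI. NPPB labelled P. anubis was at -2.002 over all features and -2.07 per neuronal UMI, and OSMR at 2.86 and 2.79. For each of these shifts the cause was not tested.

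With a section or specimen left out, calls ranged from 115 to 942 for batch, 1884 to 4197 for neuron-rich, 1863 to 3116 for C-type, 1899 to 4751 for fibroblast-rich, 107 to 993 for endothelium-rich, 683 to 2071 for SST-positive, 235 to 623 for NPPB-positive, 344 to 1092 for OSMR-positive and 1405 to 2429 for MRGPRX1-positive spots. The log2 ranges were -0.39 to 0.0491 (NPPB) and -0.31 to 0.23 (MRGPRX1) by batch, -0.16 to 0.29 (NPPB) by sex, -0.16 to 0.45 (OSMR) and 0.24 to 0.67 (MRGPRX1) in neuron-rich, 0.77 to 1.12 (OSMR) in C-type, -0.90 to -0.48 (SST), -2.27 to -1.28 (NPPB) and -0.43 to 0.18 (OSMR) in fibroblast-rich and -1.03 to -0.53 (MRGPRX1) in endothelium-rich spots. They were -0.14 to 0.32 (NPPB) and 0.61 to 0.89 (OSMR) around SST, -0.10 to 0.47 (SST) and 0.51 to 1.05 (MRGPRX1) around NPPB, -0.16 to 0.0424 for SST with NPPB overlap and -0.18 to 0.0510 for adjacent NPPB spots. A specimen left out leaves 3, with wider error in the fits. NPPB and OSMR rest on 216 and 314 UMIs, which limits every comparison of them.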
